A study of Mus musculus with 12 samples.

Results

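The cytosolic ribosomal protein genes were followed through thymic and splenic T-cell acute lymphoblastic leukaemia (T-ALL) of LN3 mice and through the matched normal T-lineage cells. Members were taken by symbol: Rpl or Rps followed by a number, with an optional a, x or l, plus Rplp0, Rplp1, Rplp2 and Rpsa, and without rows that carry a -ps suffix. This gave 83 of the 54351 genes in the count table, of which 76 encode the core of the ribosome (43 of the large subunit, 3 of the stalk and 30 of the small subunit) and 7 are second copies. Of these 7, 3 are annotated as processed pseudogenes although they lack a -ps suffix: Rpl32l, Rpl6l and Rps4l. A total of 78 passed the filter on low counts and were tested, all 76 core members among them; the 5 that did not pass were the second copies Rpl3l, Rpl10l, Rpl39l, Rpl32l and Rpl6l.

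The 12 libraries were poly(A)-selected RNA-seq libraries in 4 groups of 3. The LN3 thymus and LN3 spleen groups held T-ALL cells from mechanically dissociated organs of overtly sick LN3 tg mice on a C57BL/6 background. WT thymocytes were total thymocytes of tumour-free C57BL/6J mice, and the WT CD8 group held CD8+ T cells that had been enriched from the spleens of such mice by negative selection. The labels used here do not spell out the LN3 transgene or its promoter. They do not state that the replicates came from separate animals either, so the p-values measure the spread between these samples. The libraries held 12694571 to 42483898 counts.

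A cytosolic ribosome joins a small subunit, which reads the mRNA, to a large subunit, which forms the peptide bond, and each protein of the core is needed in 1 copy per particle except for the stalk proteins. The mRNAs of these genes begin with a run of pyrimidines, the 5′ terminal oligopyrimidine (TOP) motif, through which mTOR signalling controls their translation. Growing T cells make many ribosomes, and MYC is a known activator of the genes that build them. Loss or mutation of RPL5, RPL10, RPL11 or RPL22 is known from human T-ALL or related cancers.

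By group mean, the share of the library that these genes took up was lowest in WT thymocytes and highest in LN3 thymus. It was nearly the same in the 2 spleen groups. The genes held 2.64%, 2.13% and 4.35% of all counts in WT thymocytes 1, 2 and 3, and 5.50%, 7.25% and 5.37% in LN3 thymus 1, 2 and 3. In the spleen they held 5.39%, 4.40% and 5.89% in WT CD8 1, 2 and 3, against 6.05%, 4.46% and 5.14% in LN3 spleen 1, 2 and 3. The 2 thymus groups did not overlap, while the 2 spleen groups did. Means were 3.04% ± 1.16 in WT thymocytes, 6.04% ± 1.05 in LN3 thymus, 5.23% ± 0.758 in WT CD8 and 5.22% ± 0.795 in LN3 spleen (SD, n = 3 each).

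**Figure D1:**
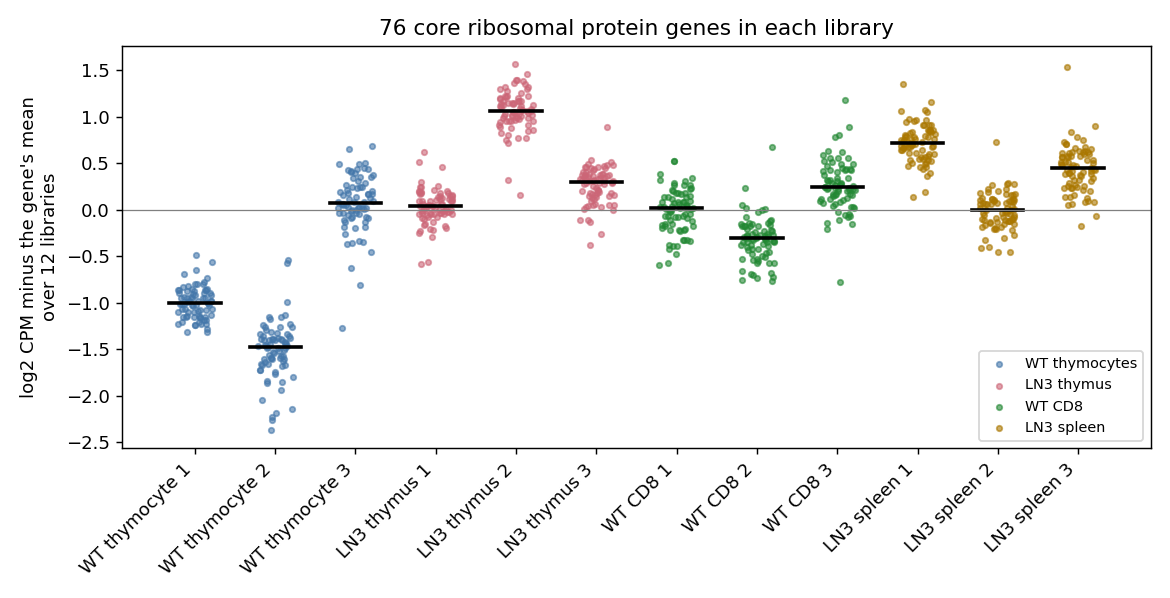
Each point is 1 of 76 core ribosomal protein genes: its log2 CPM (counts scaled to a common library size) in a library minus its mean over the 12 libraries (y axis), by library (x axis), with the median as a bar. WT thymocytes 1 and 2 sit at medians of -1.001 and -1.48, WT thymocyte 3 at 0.07, and LN3 thymus 2 is highest at 1.07.

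Within each library the core members moved together, as the plot of deviations by library shows. The median deviation from each gene's own mean was -1.001, -1.48 and 0.07 in WT thymocytes 1 to 3, 0.04, 1.07 and 0.30 in LN3 thymus 1 to 3, 0.02, -0.31 and 0.24 in WT CD8 1 to 3, and 0.72, -0.01 and 0.45 in LN3 spleen 1 to 3, on the log2 CPM scale. WT thymocyte 3 stood apart from WT thymocytes 1 and 2, and its values touch every comparison with WT thymocytes below. Per length of transcript, the most abundant core member over all libraries was Rplp0, the stalk base protein, at 2856 on a scale of counts divided by transcript length and brought to a common total, and the lowest was the row of Rpl5, which binds 5S rRNA, at 54.6. That low rank holds only for reads assigned to the Rpl5 row, since 94.0% of the counts summed over it and its copy rows were in the copy rows described below.

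LN3 thymus was set against WT thymocytes to find what differs in thymic leukaemia. All 76 core members were higher in LN3 thymus than in WT thymocytes by their fitted value, with a median log2 difference of 1.23, or 2.35-fold, and a range of 0.46 (Rpl29) to 1.76 (Rpl39). Of the 78 members tested, 18 rose and 0 fell (edgeR quasi-likelihood test, adjusted p under 0.05), against 6.06% of all 20897 tested genes called higher and 5.21% called lower. The members' share was 23.1%, and 60 had an unadjusted p under 0.05. In 29 of the 78, or 37.2%, every LN3 thymus library lay above every WT thymocyte library, which held for 14.4% of all tested genes. The median over all genes was -0.04. The 13 mitochondrially encoded genes moved with the family: 9 were called higher, with a median of 1.41, and they took up 0.937% to 1.70% of counts in WT thymocytes and 2.12% to 2.82% in LN3 thymus. Their part in the result was not tested. In bulk RNA, a change in the mix of cells and a change in RNA per cell cannot be told apart.

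The 18 genes were spread over both subunits. In the large subunit 11 of 43 rose, with a median over the 43 of 1.12, and in the small subunit 7 of 30 rose, with a median of 1.28. None of the 3 stalk genes was called, and their values were 1.34 for Rplp0 (adjusted p = 0.0663), 0.65 for Rplp1 (adjusted p = 0.404) and 0.83 for Rplp2 (adjusted p = 0.265). The stalk recruits elongation factors.

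Among large subunit genes, Rpl23, which faces the subunit interface, measured 265.1, 194 and 382 CPM in WT thymocytes 1 to 3 and 667, 1275 and 768 CPM in LN3 thymus 1 to 3. The groups did not overlap, and the difference was 1.69 ± 0.346 on the log2 scale (SE, adjusted p = 0.00800). Rpl39, a small protein at the peptide exit tunnel, measured 82.4, 42.9 and 181 CPM in WT thymocytes and 220, 539 and 279 CPM in LN3 thymus. It had the largest rise of the family, 1.76 ± 0.504 (adjusted p = 0.0402). Rpl36a measured 89.3, 59.4 and 143 CPM against 215, 434 and 219 CPM, a difference of 1.57 ± 0.383 (adjusted p = 0.0196). In all 3 genes the highest WT library was number 3 and the highest LN3 library was number 2.

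Rpl22, a protein of the large subunit that is lost in some T-ALL of patients, rose in LN3 thymus. Its levels were 107, 88.9 and 212 CPM in WT thymocytes 1 to 3 and 223, 411 and 298 CPM in LN3 thymus 1 to 3, with a difference of 1.19 ± 0.330 (adjusted p = 0.0351). Rpl3, which lies next to the peptidyl transferase centre, rose by 1.40 (adjusted p = 0.0391). Rpl11, a partner of Rpl5 in the 5S particle that binds MDM2, had a difference of 0.93 (adjusted p = 0.214), and Rpl10, which joins the large subunit last, had 0.75 (adjusted p = 0.0753).

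In the small subunit, Rps19, the gene most often mutated in Diamond-Blackfan anaemia, measured 189, 141 and 437 CPM in WT thymocytes 1 to 3 and 524, 1056 and 592 CPM in LN3 thymus 1 to 3. The lowest LN3 library was above the highest WT library, and the level was 2.83-fold higher (adjusted p = 0.0386). Rps27a, which is made as a fusion with ubiquitin, rose by 1.34 (adjusted p = 0.0145), and Rps24 rose by 1.41 (adjusted p = 0.0204). Rps6, a substrate of S6 kinase, had a difference of 1.27 (adjusted p = 0.0572), and Rpsa had 1.34 (adjusted p = 0.0745); Rps6 was separated between the groups and Rpsa was not.

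The number of genes called rested on single libraries. Without WT thymocyte 3, 72 members were called higher, the 18 among them, against 7.36% of all genes, and the core median was 1.78. Without WT thymocyte 1, WT thymocyte 2 or LN3 thymus 2, 3 members were called in each case, against 2.52%, 3.45% and 3.48% of all genes. Without LN3 thymus 3, 8 were called (4.26% of all genes), and without LN3 thymus 1, 27 were called (5.29%). The core median stayed positive in all 26 alternative settings of this comparison, from 0.64 to 1.78.

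**Figure D2:**
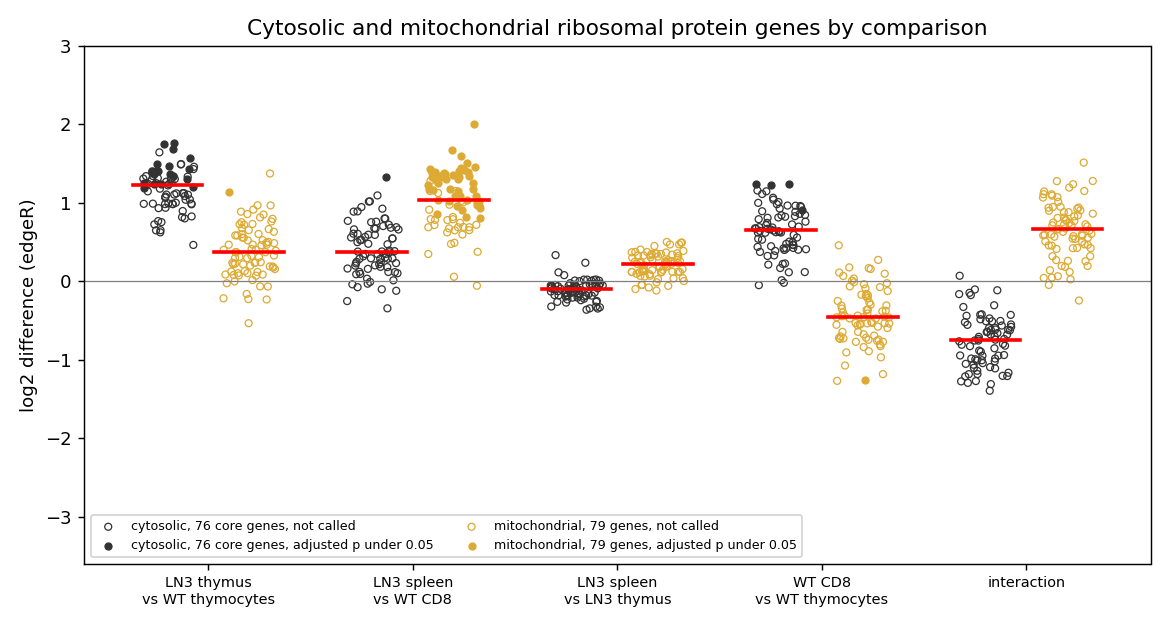
Log2 differences from edgeR (y axis) for 76 core cytosolic genes (black) and 79 mitochondrial ribosomal protein genes (yellow) in 4 comparisons and the interaction (x axis); filled points have an adjusted p under 0.05 and red bars are medians. Cytosolic medians are 1.23, 0.38, -0.10, 0.65 and -0.75 from left to right, and mitochondrial medians are 0.37, 1.04, 0.23, -0.46 and 0.66.

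The second comparison set splenic T-ALL against normal splenic CD8 cells. Of the 78 members, 2 rose and 0 fell, or 2.56% higher, where 17.9% of all genes were called higher and 13% lower. The core median was 0.38, or 1.30-fold, and 5 core members had an unadjusted p under 0.05. In 18 members, or 23.1%, every LN3 spleen library was above every WT CD8 library, against 27.5% of all genes. The members' share of calls was thus below that of all genes here. The core median was -0.05 when libraries were scaled by their totals alone, a scaling that moved the median of all genes by -0.40, from -0.11 to -0.51. The core median was therefore above that of all genes under both scalings, while its sign depended on the scaling.

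The 2 genes called were Rps27l and Rpl5. Rps27l, a second copy of Rps27 that is known as a p53 target, measured 11.4, 16.6 and 13.7 CPM in WT CD8 1 to 3 and 56.7, 27.1 and 73.2 CPM in LN3 spleen 1 to 3. The groups did not overlap, and the difference was 1.91 ± 0.441 (adjusted p = 0.00646). In the thymus it measured 20.3, 15.03 and 39.9 CPM in WT thymocytes and 34.0, 56.3 and 27.4 CPM in LN3 thymus, which overlapped, with a difference of 0.65 (adjusted p = 0.397). The 2 differences were not separated by the interaction test (1.27 ± 0.607, adjusted p = 0.306).

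Rpl5 measured 42.1, 48.9 and 58.7 CPM in WT CD8 1 to 3 and 86.1, 105 and 184 CPM in LN3 spleen 1 to 3, a difference of 1.32 ± 0.336 (adjusted p = 0.0106). It also rose in LN3 thymus, from 30.2, 31.9 and 26.2 CPM to 56.9, 123 and 118 CPM (1.75 ± 0.341, adjusted p = 0.00596). Most reads that match it were counted elsewhere, however: the Rpl5 row held 21139 counts over all libraries and the transcribed processed pseudogene Gm15500, which shares 49% of the 31-base words of the Rpl5 transcript, held 329480. Gm15500 measured 1268, 1105 and 1422 CPM in WT CD8 and 1549, 1075 and 1541 CPM in LN3 spleen, which overlapped (0.13, adjusted p = 0.771). With all copy rows added to Rpl5, the spleen difference was 0.20 (adjusted p = 0.648) and the thymus difference was 1.26 (adjusted p = 0.0278), so the spleen call depended on how reads were split between the gene and its copy.

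**Figure D3:**
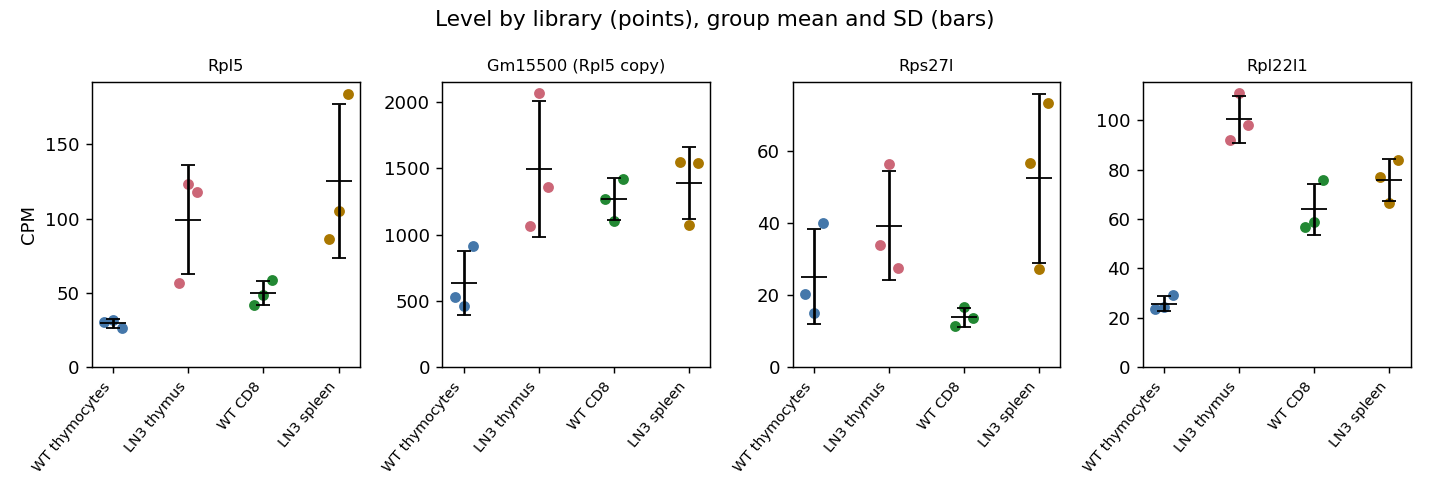
CPM (y axis) of Rpl5, its copy row Gm15500, Rps27l and Rpl22l1 in each library (points) by group (x axis), with the mean and SD as bars (n = 3). Rpl5 and Rps27l are higher in LN3 spleen than in WT CD8, Gm15500 overlaps between them, and Rpl22l1 is at 23.5 to 29.4 CPM in WT thymocytes and 92.1 to 111 CPM in LN3 thymus.

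The pair of copies is not an exception in this family. A median of 54.3% of a member's 31-base words also occurred in transcripts of other genes, and 48 of the 83 members shared more than 50%. Rpl12 held 17624 counts against 248472 in its copy rows, and Rpl27 held 8529 against 81630. Rps12 held 14704 counts and its 24 -ps rows held 174042, while Rpl10 held 46637 and its 6 -ps rows 143674. Values of these genes by name are therefore uncertain, since the counting software shares reads among near-identical transcripts. With the copy rows added, the 18 genes called higher in LN3 thymus were the same 18. Only annotated pseudogenes counted as copy rows. Rps12-ps3 (173705 counts) and Rpl10-ps3 (143477 counts) are annotated as protein coding and were left out of that check. With -ps rows added instead, the LN3 thymus difference was 1.36 for Rps12 (edgeR, adjusted p = 0.0536) and 1.06 for Rpl10 (adjusted p = 0.0873).

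The mitochondrial ribosomal protein genes, whose products build the separate ribosome of the organelle, gave other values in the same libraries. In LN3 spleen 48 of 79 were called higher than in WT CD8 and 0 lower, against 17.9% and 13% of all genes, with a median of 1.04. Mrpl12 rose 4.02-fold (adjusted p = 0.00712) and Mrpl18 rose 3.20-fold (adjusted p = 0.00279). In LN3 thymus 1 of 79 rose, Mrpl47, with a median of 0.37 over the list. This share of 1.27% was below the 6.06% of all genes called higher there. The spleen count ranged from 12 without LN3 spleen 3 and 13 without WT CD8 1 to 64 when the fit held only the groups compared. All genes called higher in these 3 settings were 12%, 10.9% and 21.5%. With the ribosomal RNA class described below as a term the count was 2, against 7.27% of all genes.

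Splenic T-ALL did not differ detectably from thymic T-ALL in these genes. Of the 78 members, 0 rose and 0 fell by edgeR, 0 had an unadjusted p under 0.05, and 0 were called in any of the 24 alternative settings, DESeq2 among them, while 0.694% of all genes were called higher and 0.0287% lower. The core median was -0.10, with single genes from -0.36 (Rpl37a) to 0.33 (Rpl5).

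Normal CD8 cells of the spleen were higher than normal thymocytes for 4 members, or 5.13%, and lower for 0. Of all genes, 7.24% were called higher and 8.49% lower, so the members' share called higher was below that of all genes. The 4 were Rpl21 (1.24, adjusted p = 0.0170), Rps24 (1.24, adjusted p = 0.0286), Rpl23 (1.23, adjusted p = 0.0279) and Rpl10 (0.91, adjusted p = 0.0281). Rpl10 measured 90.1, 105 and 122 CPM in WT thymocytes 1 to 3 and 149, 250 and 198 CPM in WT CD8 1 to 3, without overlap, but with its -ps rows added the adjusted p was 0.229. The core median was 0.65, 11 members were separated between the groups (14.1%, against 17.5% of all genes), and without WT thymocyte 3, 37 members were called, the 4 among them, against 5.67% of all genes.

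Whether the difference between T-ALL and normal cells depended on the organ was tested as an interaction. Of the 78 members 0 were called in either direction by edgeR, with 8 at an unadjusted p under 0.05, against 3.29% of all genes called higher and 0.895% lower. The core median of the interaction was -0.75, and 75 of 76 core members had a negative value. DESeq2 called 0 members as well, but 7 were called lower with library totals as scaling, 2 with upper-quartile scaling and 5 with the ribosomal RNA class described below as a term, against 1.16%, 1.12% and 1.23% of all genes.

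The spread among core members was narrow beside that of all genes. All 76 lay within 2-fold of the core median in each of the 5 comparisons, where 11262 (LN3 spleen against WT CD8) to 17660 (LN3 spleen against LN3 thymus) of the 20897 tested genes lay within 2-fold of their own median. This was not particular to the family. In each comparison 78 or 79 of 79 mitochondrial ribosomal protein genes lay within 2-fold of their own median. The same held for 14 of 14 genes of RNA polymerase I. Among the core members, values ran from -0.34 to 1.32 in LN3 spleen against WT CD8.

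Second copies and genes outside the symbol rule were mostly low or followed the family. Rpl10l, a testis-expressed copy of Rpl10, had 0 counts in all 12 libraries. Rpl3l, the muscle copy of Rpl3, had 2 to 27 counts a library, and Rpl39l had 0 to 13. Rps4l had 1 to 61 counts a library and was not called in any comparison. Rps3a1, the gene of a small subunit protein, rose 2.48-fold in LN3 thymus (adjusted p = 0.0201). Fau, which encodes a ribosomal protein fused to a ubiquitin-like domain, had a log2 difference of 0.54 there (adjusted p = 0.526).

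Rpl22l1, a paralogue of Rpl22 whose RNA is known to be repressed by the Rpl22 protein, had the smallest adjusted p of the ribosomal protein genes named here. It measured 23.5, 24.5 and 29.4 CPM in WT thymocytes 1 to 3 and 92.1, 111 and 97.9 CPM in LN3 thymus 1 to 3, a 3.89-fold difference (1.96 ± 0.216, adjusted p = 0.000184) that stayed called in all 26 alternatives. In the spleen it measured 56.9, 58.9 and 75.9 CPM in WT CD8 and 77.1, 66.7 and 83.8 CPM in LN3 spleen, which overlapped (0.25, adjusted p = 0.368). WT CD8 exceeded WT thymocytes 2.48-fold (adjusted p = 0.00139). Over 24 alternatives that difference ran from 0.37 to 1.44 on the log2 scale, with an adjusted p of up to 0.637. The interaction was -1.71 ± 0.296 (adjusted p = 0.00700), but with a GC and length offset it was -0.70 (adjusted p = 0.575), and it was not called without the 3 libraries of steepest GC slope described below. Its transcript has a GC content of 40.6%.

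Other genes of the pathway gave mixed counts. The shares of all genes called higher, 6.06% in LN3 thymus and 17.9% in LN3 spleen, are those to read them against. Among 17 tested elongation factors and other TOP mRNA genes, 5 rose (29.4%) and 0 fell in LN3 thymus, Npm1, a nucleolar chaperone, by 2.01 (adjusted p = 0.00390) and Eif3e, an initiation factor subunit, by 1.48 (adjusted p = 0.00697). In LN3 spleen 5 rose (29.4%) and 1 fell, with Nap1l1 at 1.85 (adjusted p = 0.000164) and Ybx1 at 1.63 (adjusted p = 0.00279). Among 16 genes of growth control, 2 rose in LN3 thymus (12.5%) and 3 in LN3 spleen (18.8%), Myc by 2.21 (adjusted p = 0.000682) and 2.08 (adjusted p = 0.000368). Deptor rose by 2.23 in LN3 thymus (edgeR, adjusted p = 0.00943) and Eif4e by 1.71 in LN3 spleen (edgeR, adjusted p = 0.0012). Among 14 genes of RNA polymerase I, which transcribes ribosomal RNA, 4 rose in LN3 thymus (28.6%) and 3 in LN3 spleen (21.4%), Taf1d in both (1.10 and 1.32). The spleen shares of the growth control and RNA polymerase I lists were near that of all genes.

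Libraries differed in composition, and in 3 of the 4 groups the difference moved with the family's level. The slope of log2 level on GC content, over genes outside the family, was most positive in WT thymocyte 3 (0.93 per 10 points of GC), LN3 spleen 1 (0.41) and LN3 thymus 2 (0.36), each the library with the highest core level of its group. It was most negative in WT thymocyte 2 (-0.43), the library with the lowest core level of all. In WT CD8 the order was not the same: WT CD8 3 had the highest core level and a slope of -0.35, against -0.22 in WT CD8 1 and -0.35 in WT CD8 2. Over genes at 10 CPM or more, the slope was 1.03 in WT thymocyte 3, 0.12 in LN3 spleen 1 and 0.13 in LN3 thymus 2. These were still the highest of their groups. The other LN3 libraries did not follow core level there, with 0.04 and -0.15 in LN3 thymus 1 and 3, and -0.16 and -0.30 in LN3 spleen 2 and 3. WT thymocyte 2 had -0.20 and was no longer the most negative. The core transcripts have a median GC of 51.8% against 48.7% for other tested genes and a median length of 882 bases against 2592. WT thymocyte 3 exceeded the mean of WT thymocytes 1 and 2 in 75 of 76 core members, by a median of 1.41. LN3 thymus 2 exceeded the mean of the other libraries of its group in 75 of 76 (0.91), and LN3 spleen 1 in 74 of 76 (0.49). The Spearman correlation of that excess with GC over 76 genes, which share 1 library, was 0.46, 0.07 and 0.33.

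**Figure D4:**
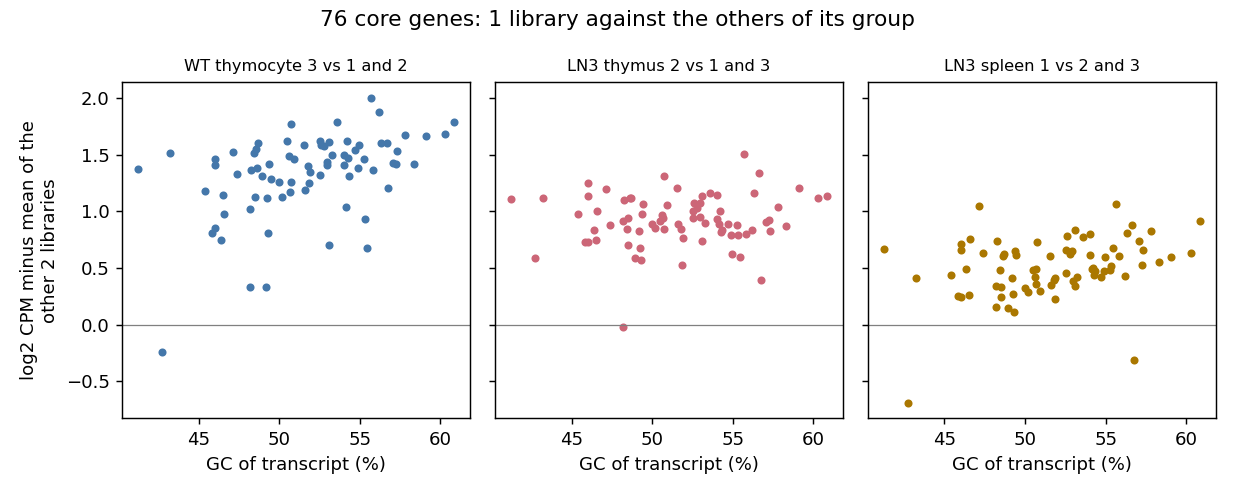
Log2 CPM of each of 76 core genes in 1 library minus the mean of the other 2 libraries of its group (y axis) against the GC content of its transcript in percent (x axis). Most points are above 0: 75, 75 and 74 of 76 from left to right.

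The trend in GC and length that was fitted on other genes had a median of -0.03 at the core members for LN3 thymus against WT thymocytes. With the trend of each library removed as an offset, the core median was 1.22 in LN3 thymus against WT thymocytes, 0.45 in LN3 spleen against WT CD8 and 0.63 in WT CD8 against WT thymocytes. The number of members called higher in LN3 thymus was then 35, against 7.79% of all genes. Leaving out the 3 libraries of steepest slope in either direction (WT thymocyte 3, WT thymocyte 2 and LN3 spleen 1) left 1 WT thymocyte library, whose spread is then assumed to be that of the other groups; 0 members were called in LN3 thymus by edgeR, against 0.832% of all genes, with a core median of 1.54. Leaving out the 3 of most positive slope (WT thymocyte 3, LN3 spleen 1 and LN3 thymus 2) instead gave 61, against 4.31% of all genes, with a core median of 1.42, and it moved the core median of WT CD8 against WT thymocytes to 1.27. The part of GC and length in the differences was not tested further.

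The sum of all rows annotated as ribosomal RNA also varied, from 0.442% to 1.45% of counts in 6 libraries and from 4.61% to 10.5% in the other 6. All WT CD8 libraries were low and all LN3 spleen libraries high, so this class and the group cannot be told apart in the spleen. In the thymus, LN3 thymus 1 against WT thymocytes 1 and 2 (low) gave a core median of 1.31, and LN3 thymus 2 and 3 against WT thymocyte 3 (high) gave 0.64, each with a single library on 1 side. The class was cut in 2 ways, and the cut tried first, at 7.41%, put only LN3 thymus 2 and LN3 spleen 1 in the high class and gave 0.80 within the low class. The part of these classes in the differences was not tested.

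Markers of other cells moved between the groups as well. The summed level of 8 erythroid markers was 2020 to 6341 CPM in LN3 spleen and 89.1 to 749 CPM in WT CD8, and that of 6 NK cell markers was 6.09 to 36.1 CPM against 462 to 809 CPM, with none of either list at 0 in these groups. In the thymus the erythroid sum was 98.6 to 4014 CPM in WT thymocytes and 250.3 to 595 CPM in LN3 thymus, which overlapped. Its markers did not move alike: 2 of 8 had a positive log2 difference, the median was -4.14 and the range -5.49 to 2.76. Of these 8, 1 was called higher and 1 lower in LN3 thymus. The NK cell sum was 24.6 to 33.6 CPM in WT thymocytes against 3.15 to 7.36 CPM in LN3 thymus, without overlap, and 3 of 6 NK cell markers were called lower. Between the normal cells, 6 of 6 NK cell markers and 7 of 10 myeloid markers were higher in WT CD8 than in WT thymocytes; the myeloid sum was 213 to 3044 CPM against 89.1 to 239 CPM. All 20 G2/M phase genes were called higher in LN3 spleen than in WT CD8, 0 of 20 in LN3 thymus against WT thymocytes, and 20 of 20 lower in WT CD8 than in WT thymocytes. The part of these cells and of cycling in the results was not tested.

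The promoters of the members were read for letters they share. RefSeq windows of 300 bases (GRCm38.p6) were matched by symbol for 61 of 83 members, in 73 windows. The letters CCGGAAG, on either strand, were in 35.6% of them and in 8.86% of all 32851 windows, and TATAAA was in 9.59% against 13.6%. A run of 8 or more C or T between 5 bases before and 15 bases after the start was in 30.1% against 6.68%, and CTCTTTCC, which can overlap such a run, was in 17.8% of windows against 3.12%. The 4 stretches below, from 60 bases before to 20 bases from the start, show such runs, CTCTTTCC or CCGGAAG in capitals. Rps6 and Rps27l are shown because they are a core gene of the TOP class and the second copy that rose in LN3 spleen, Rps10 holds both a run and CCGGAAG, and Rpl28 holds CTCTTTCC.
Rps6: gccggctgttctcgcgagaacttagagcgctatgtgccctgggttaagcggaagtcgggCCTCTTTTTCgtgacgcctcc
Rps10: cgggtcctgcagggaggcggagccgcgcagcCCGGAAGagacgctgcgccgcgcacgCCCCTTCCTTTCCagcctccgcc
Rpl28: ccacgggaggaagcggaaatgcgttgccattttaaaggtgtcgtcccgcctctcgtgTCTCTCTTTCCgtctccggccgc
Rps27l: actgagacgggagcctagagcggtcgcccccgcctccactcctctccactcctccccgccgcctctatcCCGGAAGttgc
They lie at chr4:86857348-86857427 (minus strand), chr17:27635225-27635304 (minus), chr7:4792905-4792984 (plus) and chr9:66946026-66946105 (plus). The Rpl5 and Rpl23 stretches hold neither CTCTTTCC nor CCGGAAG, and no such run in the bases searched for one; Rpl5 has a run of C and T further upstream. A match is a description of the letters and not evidence of binding.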

How the data were processed

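The deposited count table held whole-number expected counts per gene for 12 libraries, made by the authors with kallisto 0.46.1 against GRCm38, per the submitters' processing notes; the sources used here do not give the annotation release or how transcripts were summed to genes. A second deposited table held variance-stabilized values on a log2 scale, per the file headers, and served as an alternative. Counts were tested with edgeR 4.0.16 (R 4.3.3) by the quasi-likelihood test, with TMM scaling, filterByExpr and 1 fit of 4 group means over 12 libraries, with Benjamini-Hochberg adjustment over 20897 genes and a threshold of 0.05. CPM values use TMM-scaled totals. The fit was tested on simulated counts. Transcript length, GC content and shared 31-base words came from GENCODE M21 (GRCm38), and gene names are those of the table. Promoter windows came from RefSeq.

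The members and gene lists were chosen with earlier results of these data known. Named genes were a set of anchor genes, the 4 called members with the largest rise and fall in each comparison, and the 2 called genes with the largest change in each other list. Some genes of the other lists that meet this rule are left out of the text. Alternatives covered scaling, the filter, DESeq2 1.42.0, limma 3.58.1, the samples fitted, each library left out, the replicate block, GC and length, and pseudogene rows. Added after seeing the data were copy rows (annotated pseudogenes that hold at least 20% of a member's 31-base words), denominators of the share, the ribosomal RNA class, and leaving out the 3 libraries of most positive GC slope, which was run first in place of the planned 3 steepest slopes in either direction; both are reported. That class was first cut at the widest gap in percent, and then, after those values were seen and no WT thymocyte library fell in its high class, at the widest gap on a log scale; both are reported.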

Additional observations from a re-analysis of the deposited data

Results flagged for a closer look

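Rpl22l1 was flagged because its difference between T-ALL and normal cells was itself different in the 2 organs: the interaction was -1.71 on the log2 scale (adjusted p = 0.00700, edgeR), with a 3.89-fold difference in the thymus and a 1.19-fold difference in the spleen. Every LN3 thymus library was above every WT thymocyte library, while the spleen groups overlapped. The adjusted p ranged from 2.92e-05 to 0.575 over the alternatives.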

How the results depend on the processing

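The number of members called higher in LN3 thymus than in WT thymocytes (18) ranged from 3 to 72 when 1 library was left out. It was 41 with library totals as scaling, 28 without a filter, 33 with DESeq2, 5 with only the groups compared, 35 with the GC and length offset, 0 without the 3 libraries of steepest GC slope in either direction (1 WT thymocyte library left) and 61 without the 3 of most positive slope, where 4.89%, 3.2%, 8.06%, 4.56%, 7.79%, 0.832% and 4.31% of all genes were called higher. With the ribosomal RNA class (log-scale cut) as a term it was 28. Its low and high classes each leave an arm of 1 library, so no count is given within them. The core median was 0.64 in the high class. With the cut tried first the count was 7 as a term and 2 within the low class. With the class as a term, 6.35% of all genes were called higher by the log-scale cut and 5.61% by the cut tried first. Within the low class of the cut tried first it was 3.2%. The core median ranged from 0.81 to 1.78 when 1 library was left out. The cause of these changes was not tested.

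For LN3 spleen against WT CD8 (2) the count was 1 with limma, 13 with only the groups compared, 8 without the 3 libraries of most positive slope, 3 higher and 1 lower without the 3 steepest, 1 higher and 1 lower with copy rows added, and 1 to 2 when 1 library was left out. Of all genes, 16.3% were called higher with limma, 21.5% with only the groups compared and 21.9% without the 3 libraries of most positive slope. Without the 3 steepest, 16.3% of all genes were called higher and 10.8% lower. With copy rows added, 18% were called higher and 13% lower, and 10.9% to 16.7% were higher when 1 library was left out. With the log-scale ribosomal RNA class as a term 0 members were called higher, against 7.27% of all genes, and the core median was -0.61. That class equals the group in these 2 groups, so the term is set by the thymus libraries. Under it Rplp0 was -0.37, Rpl3 -0.37, Rpl11 -0.45, Rpl22 -0.21, Rpsa -0.63, Rps6 -0.52, Rps19 -0.71 and Rps27a -0.27. With library totals Rps19 was -0.10, Rps27a -0.025 and Rpl22l1 -0.16; with upper-quartile scaling Rps19 was -0.028 and Rpl22l1 -0.10; with -ps rows Rpl10 was 0.43. Library totals moved the median of all genes by -0.40 here and by -0.20 in the thymus comparison, and upper-quartile scaling by -0.32 and -0.17, so these signs are relative to that shift.

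For WT CD8 against WT thymocytes (4) the count was 26 with library totals, 9 with upper-quartile scaling and 2 with only the groups compared. The shares of all genes called higher were 7.59%, 8.04% and 7.26%. Without the 3 libraries of most positive slope the count was 59 (core median 1.27), against 6.12% of all genes. With the ribosomal RNA class as a term it was 44, against 8.55%. When 1 library was left out it was 0 to 37 (core median 0.33 to 1.24), against 3.21% to 6.58%. For the interaction, 7 members were called lower with library totals, 2 with upper-quartile scaling and 5 with the ribosomal RNA class as a term (core median -1.56); without the 3 steepest libraries the core median was -1.30; the core median ranged from -1.37 to -0.38 when 1 library was left out.

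The LN3 thymus and LN3 spleen libraries carry the same tumour numbers, T-ALL1 to T-ALL3, in their titles. The labels do not say whether a shared number means the same mouse. After group means were removed, same-numbered LN3 thymus and LN3 spleen libraries had correlations of -0.15, -0.53 and -0.04 over all tested genes. With 3 libraries a group, these values cannot show whether the samples were paired. With the replicate block 11 members were called in LN3 thymus (36 with the GC and length offset), against 4.34% (6.47%) of all genes called higher. In LN3 spleen 2 were called (4 with the offset), against 15.1% (18.9%). In WT CD8 2 were called, against 4.97%, or 1 with a replicate block within genotype, against 3.38%. Genes with few counts, such as Rpl3l, are limited by depth.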
